A study of Mus musculus with 4 samples.

Results

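The corticosteroid receptors and their target genes were followed here as 6 genes of 32285 in the files, chosen by symbol: Nr3c1, Nr3c2, Fkbp5, Tsc22d3, Sgk1 and Hsd11b1. The data were single-nucleus RNA counts from mouse pituitary, in 4 libraries of wild-type UM-HET3 mice, a genetically mixed stock bred from several inbred strains and used in studies of aging. Their labels cross 2 ages, 5 and 22 months, with sex, and every library was a single pool of 3 glands with no treatment given in the labels, so a library, not a mouse, was the unit of every comparison. After filters on genes, mitochondrial reads and doublets, 31172 nuclei remained, and the groups below are the marker-named classes of nuclei in which the 6 genes were counted.

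Glucocorticoids from the adrenal cortex bind the glucocorticoid receptor, encoded by Nr3c1, and the mineralocorticoid receptor, encoded by Nr3c2, which binds them with higher affinity. Both receptors wait in the cytoplasm with chaperones, move to the nucleus on binding hormone and act there as transcription factors. In the pituitary this pathway carries negative feedback, by which glucocorticoids restrain the corticotropes that make the precursor of adrenocorticotropic hormone. Fkbp5 encodes a co-chaperone that lowers the receptor's affinity for hormone and is itself induced by it. Tsc22d3 encodes the glucocorticoid-induced leucine zipper, Sgk1 encodes a serine/threonine kinase induced by both receptors, and Hsd11b1 encodes the enzyme that regenerates active glucocorticoid from its inert form inside cells.

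Libraries are given by their labels because the sex-chromosome transcripts went against 2 of them. Summed Y-linked transcripts stood at 651 CPM (UMIs of a gene per 1000000 UMIs of the nuclei summed) in the 5-month library labelled males and 647 CPM in its counterpart labelled females, and at 0.472 and 0.518 CPM in the 22-month pair. Xist, transcribed from the inactive X chromosome, stood at 0.264, 0.942, 2459 and 1741 CPM in the same order. The comparison of labelled ages was therefore also a comparison of libraries with Y transcripts against libraries with Xist, and the effects cannot be told apart. If the 2 labels at odds with the transcripts had been exchanged, the comparison of labelled sexes would be the comparison of ages. The 4 libraries held 33328821 to 65773807 UMIs, the medians per kept nucleus ran from 3454 to 4725 UMIs, and 66 to 87 barcodes of each library also occurred in another. In 11 classes named from markers, the markers listed for a class were highest in that class for between 5 of 7 (stem-like) and 9 of 9 (stromal-like). Each class name ends in "-like" since it rests on those markers alone, and 4 clusters with 1042 nuclei stayed unnamed.

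Fkbp5 lies on the minus strand of mouse chromosome 17 from 28399094 to 28517527 (mm10, GENCODE M21), Sgk1 on the plus strand of chromosome 10 from 21882184 to 21999903, and Tsc22d3 on the minus strand of the X chromosome from 140539528 to 140600659. Nr3c2 lies on the plus strand of chromosome 8 from 76899442 to 77245012, and Hsd11b1 on the minus strand of chromosome 1 from 193221634 to 193264075. Because Fkbp5, Sgk1 and Tsc22d3 had lower levels together in lactotrope-like nuclei at the labelled age of 22 months, 1 promoter window of each is printed here from RefSeq (GRCm38.p6), from 250 bases before to 50 bases after a transcript start. Capitals mark matches to the glucocorticoid response element searched for: the palindrome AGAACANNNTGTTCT, its core ACANNNTGT, and the half-site AGAACA or TGTTCT, which are the same letters on opposite strands and overlap the palindrome.
Sgk1 promoter, chr10:21993640-21993939, plus strand: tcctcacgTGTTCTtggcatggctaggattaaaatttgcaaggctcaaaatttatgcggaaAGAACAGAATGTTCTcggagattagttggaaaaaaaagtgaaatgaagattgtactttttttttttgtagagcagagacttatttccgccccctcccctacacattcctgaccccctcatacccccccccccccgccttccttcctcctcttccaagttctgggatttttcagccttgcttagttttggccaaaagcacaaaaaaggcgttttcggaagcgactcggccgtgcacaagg
Tsc22d3 promoter, chrX:140600473-140600772, minus strand: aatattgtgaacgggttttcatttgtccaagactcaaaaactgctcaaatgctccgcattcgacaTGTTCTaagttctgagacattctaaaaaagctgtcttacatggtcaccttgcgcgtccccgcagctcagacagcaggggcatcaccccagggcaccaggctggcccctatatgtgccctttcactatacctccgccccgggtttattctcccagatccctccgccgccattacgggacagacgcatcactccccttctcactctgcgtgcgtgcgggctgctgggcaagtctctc
Fkbp5 promoter, chr17:28486100-28486399, minus strand: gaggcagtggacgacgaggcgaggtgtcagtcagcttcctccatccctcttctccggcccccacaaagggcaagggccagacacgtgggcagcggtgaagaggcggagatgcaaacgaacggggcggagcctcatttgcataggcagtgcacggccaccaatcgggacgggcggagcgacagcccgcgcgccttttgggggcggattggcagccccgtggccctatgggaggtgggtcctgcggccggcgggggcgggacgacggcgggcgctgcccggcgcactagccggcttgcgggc
This Sgk1 window, 1 of 6 listed for the gene, held the complete palindrome from 189 to 175 bases before the start, at 21993701 to 21993715 of chromosome 10. The palindrome occurred in 3 of 32851 promoter windows of the same length (0.00913%), the core in 6.85% and a half-site in 19.0%. The Tsc22d3 window, 1 of 3 for that gene, held a single half-site, and the single Fkbp5 window had no match. No other Sgk1 window held the palindrome, and no other Tsc22d3 window held a match. The windows printed for these genes are thus those with the most matches. The shares over all windows therefore do not measure how unusual the printed windows are. The promoter table held 1 window each for Nr3c2 and Hsd11b1, neither with a match. These matches describe letters in the windows, and binding was not measured.

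The levels by class came first, as a description without a test, since classes were built from the same nuclei; the 6 genes themselves were left out of the genes used for clustering. Values are CPM of the nuclei of a class summed within a library, and each run of 4 gives males and then females of the 5-month label, followed by males and then females of the 22-month label.

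Nr3c1, the glucocorticoid receptor gene, was highest in corticotrope-like nuclei, at 420, 409, 450 and 536 CPM. No library of any other class reached that range, and the next 6 classes overlapped one another, from endothelial-like nuclei (median 246 CPM) through somatotrope-like (229 CPM), macrophage-like, stromal-like and stem-like to pituicyte-like nuclei (167 CPM). Thyrotrope-like nuclei (104 to 160 CPM) and gonadotrope-like nuclei (69.2 to 94.99 CPM) followed without overlap between the pair. The lowest were melanotrope-like nuclei, at 10.2, 12.8, 18.4 and 22.0 CPM, and lactotrope-like nuclei, at 12.7, 20.2, 5.96 and 7.45 CPM, whose ranges overlapped. Corticotropes and melanotropes both make proopiomelanocortin, and their Nr3c1 ranges were the highest and nearly the lowest of all classes.

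RNA of one class can appear in nuclei of another, so the low Nr3c1 values were set beside a gene restricted to somatotropes. Ghrhr, the receptor for growth-hormone-releasing hormone, stood in lactotrope-like nuclei at 2.05%, 2.78%, 2.01% and 1.51% of its somatotrope-like level. Nr3c1 stood there at 5.88%, 8.34%, 2.93% and 2.58% of its somatotrope-like level. In the libraries labelled 22-month the Nr3c1 level of lactotrope-like nuclei was thus close to that of the restricted marker. It is not read as expression by those cells. Fkbp5 stood at 43.9% and 40.8% of its somatotrope-like level in the libraries labelled 5-month. In those labelled 22-month it stood at 3.97% and 5.31%, below growth hormone RNA at 11.9% and 8.88%. How much of that remaining Fkbp5 belongs to lactotrope-like cells was not tested, and the Fkbp5 folds below rest on it.

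Nr3c2, the mineralocorticoid receptor gene, was highest in somatotrope-like nuclei, the growth hormone cells, at 733, 833, 833 and 968 CPM, above every library of every other class. Corticotrope-like nuclei came next, at 392, 438, 542 and 570 CPM, and overlapped thyrotrope-like, stem-like and stromal-like nuclei (medians of 423, 419 and 417 CPM). Gonadotrope-like nuclei were lowest, at 127, 156, 134 and 105 CPM, below every library of the next class in order, the lactotrope-like nuclei (178 to 310 CPM). The receptor pair therefore had different leading classes, and the class medians of Nr3c2 ran from 130 to 833 CPM and those of Nr3c1 from 10.1 to 435 CPM, a smaller ratio of highest to lowest for Nr3c2.

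Fkbp5, the receptor co-chaperone gene, had its highest levels in stromal-like nuclei, at 467, 457, 434 and 312 CPM, and in corticotrope-like nuclei, at 319, 376, 455 and 388 CPM, with overlapping ranges. Melanotrope-like nuclei were steady and low, at 54.2, 57.4, 50.2 and 51.6 CPM. Lactotrope-like nuclei had the largest ratio of highest to lowest library among the 11 classes, at 124, 136, 8.01 and 13.2 CPM, which took them from above the melanotrope-like level to below it.

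Tsc22d3, the leucine zipper gene, was highest in pituicyte-like nuclei, glia of the posterior lobe, at 189, 62.5, 181 and 151 CPM. Stem-like nuclei held a nearly constant 71.9, 64.6, 70.7 and 73.1 CPM, inside the pituicyte-like range. The endocrine classes lay below the range of endothelial-like nuclei (33.4 to 50.5 CPM), with medians from 22.1 CPM in thyrotrope-like to 5.42 CPM in gonadotrope-like nuclei.

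Sgk1, the kinase gene, had few UMIs, and almost every class overlapped its neighbours. Endothelial-like nuclei led, at 78.0, 87.7, 28.4 and 25.3 CPM, from 42 UMIs in all, and somatotrope-like nuclei followed at 14.7, 41.2, 42.5 and 42.9 CPM, from 1440 UMIs. The library labelled 5-month males stood alone at the low end in somatotrope-like nuclei.

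Hsd11b1, the glucocorticoid-regenerating enzyme gene, separated 2 classes from the rest. Stromal-like nuclei, fibroblasts and pericytes by their markers, held 184, 223, 201 and 235 CPM. Stem-like nuclei held 94.97, 87.1, 96.7 and 126 CPM, above every library of the remaining classes and below every stromal-like one. The 6 endocrine classes did not pass 4.18 CPM in any library. At a fixed depth of 1500 UMIs, 19.7% to 25.9% of stromal-like and at least 11.2% of stem-like nuclei in each library had an Hsd11b1 UMI, against 0.121% to 0.419% of lactotrope-like nuclei, which serve here as the class near background; before thinning the lactotrope-like share was 0.407% to 1.24% at median depths of 3186 to 5040 UMIs.

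**Figure D1:**
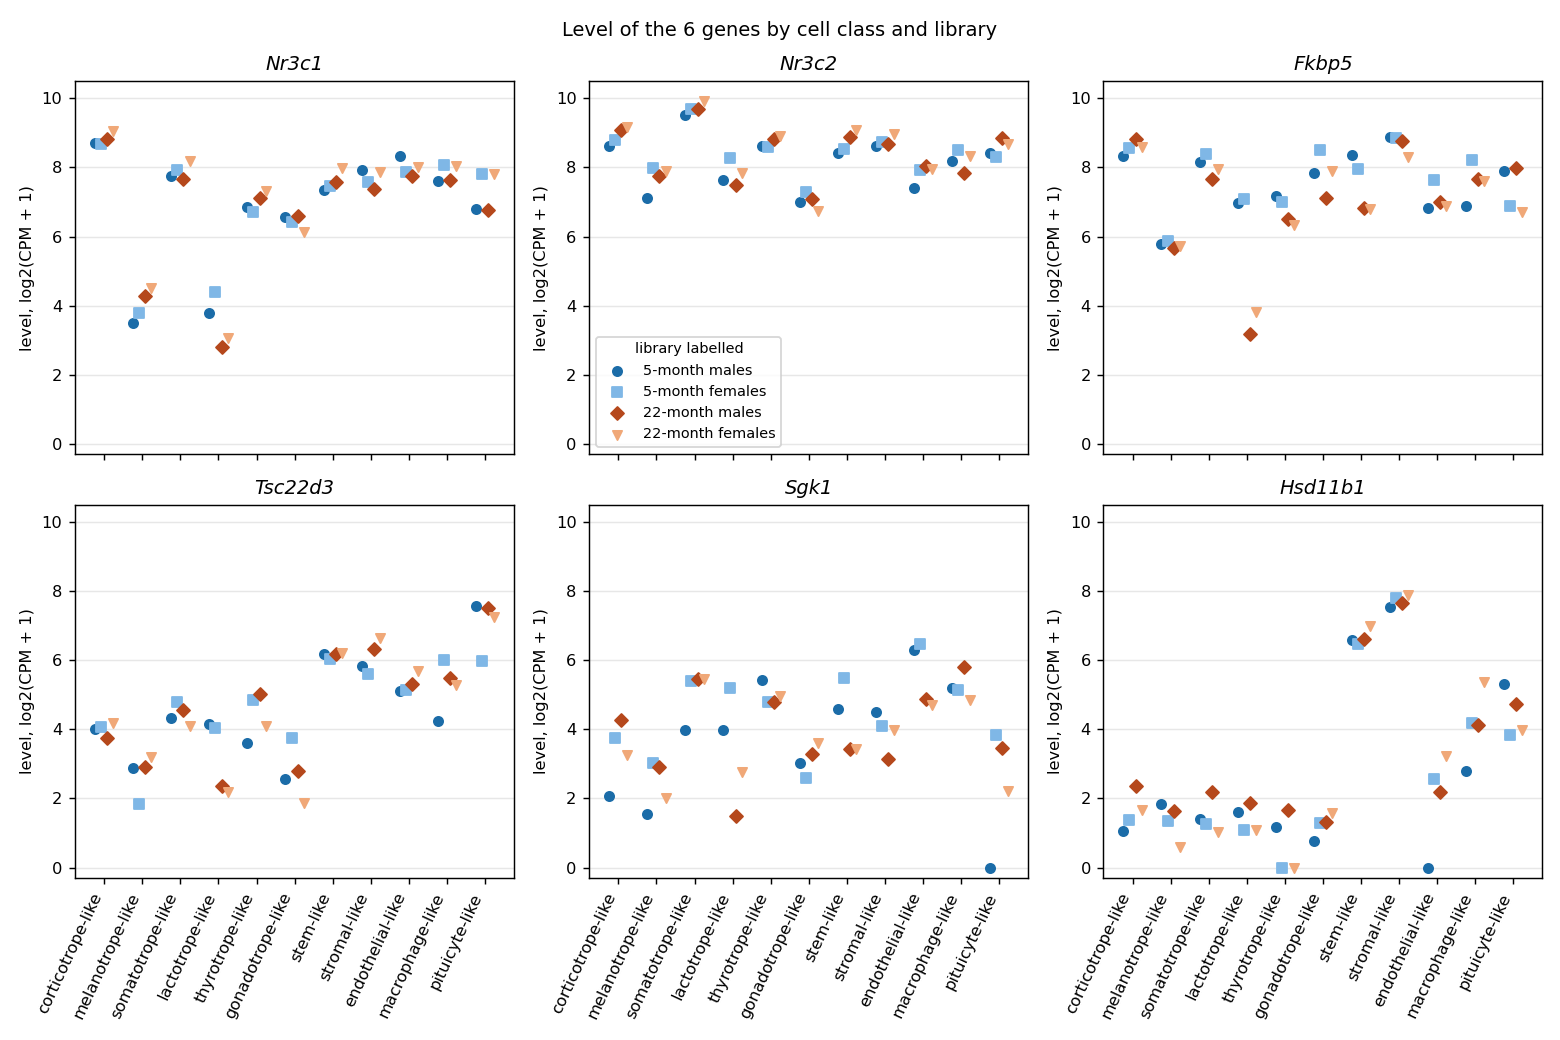
Level of each of the 6 genes, as log2(CPM + 1), in 11 classes of nuclei; each point is 1 library, with colour and shape giving its label. Nr3c1 peaks in corticotrope-like nuclei (409 to 536 CPM), Nr3c2 in somatotrope-like nuclei (733 to 968 CPM) and Hsd11b1 in stromal-like and stem-like nuclei, and the Fkbp5 points of lactotrope-like nuclei split between 124 and 136 CPM and 8.01 and 13.2 CPM.

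The comparison of labelled ages asked which of these genes differed between the pools labelled 22-month and 5-month within a class. Summed counts were tested with edgeR's quasi-likelihood method with labelled age and labelled sex as terms, which leaves 1 residual degree of freedom per gene beside the spread shared across genes, and adjusted p is Benjamini-Hochberg over all genes of a class. A permutation of 2 libraries against 2 cannot go below an exact two-sided p of 0.333. Of 66 pairs of gene and class, 53 passed the filter on low counts, and 6 of these passed the test, all of them lower in the libraries labelled 22-month. They were Fkbp5, Sgk1, Tsc22d3 and Nr3c1 in lactotrope-like nuclei and Fkbp5 and Sgk1 in stem-like nuclei. In lactotrope-like nuclei 22.2% of 16441 genes passed in either direction and 10.7% passed as lower, and in stem-like nuclei 5.65% of 10080 genes passed and 2.79% as lower. In the 9 classes without a passing member, 6.34% of all genes passed in somatotrope-like, 2.76% in corticotrope-like, 3.36% in melanotrope-like, 12.1% in gonadotrope-like, 1.58% in thyrotrope-like, 2.53% in stromal-like, 3.04% in pituicyte-like, 1.05% in macrophage-like and 0.226% in endothelial-like nuclei. Nr3c2 and Hsd11b1 passed in no class.

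**Figure D2:**
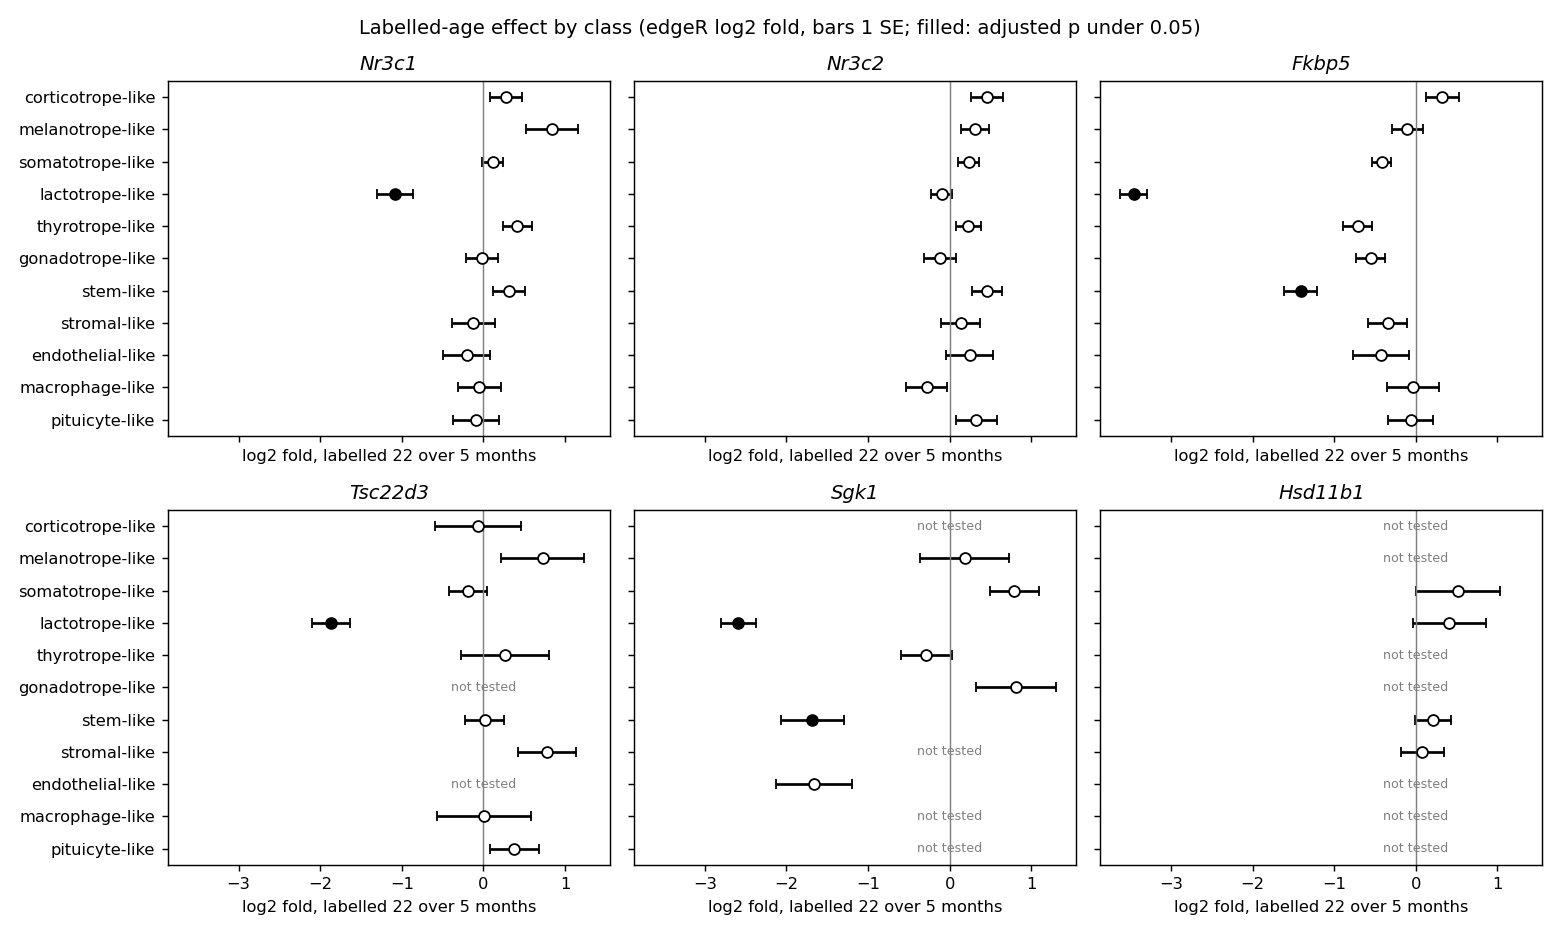
edgeR log2 fold of the libraries labelled 22-month over those labelled 5-month for each gene and class, with bars of 1 standard error; filled points have an adjusted p under 0.05, and pairs below the filter on low counts are written as not tested. The filled points lie in lactotrope-like nuclei, from Fkbp5 at -3.46 to Nr3c1 at -1.08, and in stem-like nuclei, at -1.41 for Fkbp5 and -1.69 for Sgk1.

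Fkbp5 in lactotrope-like nuclei, the prolactin cells, gave the largest fold of the 53 tests. It was counted at 124 and 136 CPM (906 and 1225 UMIs) in the 5-month males and females, by label, and at 8.01 and 13.2 CPM (180 and 249 UMIs) in the 22-month males and females. Both libraries labelled 22-month lay far below both labelled 5-month, and the counting intervals did not meet. The edgeR log2 fold was -3.46 ± 0.17 (SE, adjusted p = 2.71e-05). Within labelled sexes the level was 15.5-fold lower in males (95% exact binomial interval 13.2 to 18.2, counting error only) and 10.3-fold lower in females (8.97 to 11.8). After thinning to 1500 UMIs, 16.6% and 18.5% of lactotrope-like nuclei had an Fkbp5 UMI in the libraries labelled 5-month, against 0.992% and 1.75% in those labelled 22-month, a share below that of melanotrope-like nuclei in any library (5.51% to 6.90%). The unthinned shares were 30.1%, 33.2%, 3.60% and 5.87%. With a library left out, the fit here and below also dropped the other labelled factor, and 1 arm was a lone pool assumed to vary like the pair in the other arm, so 2 choices changed at once. The Fkbp5 fold kept its direction and passed in each of these 4 fits (-3.83 to -3.10, adjusted p of 0.000172 to 0.0143), and on all 4 libraries without labelled sex as a term (-3.43, adjusted p = 0.00195).

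Lactotrope-like nuclei separated by labelled age into different clusters, which bears on every lactotrope-like value here. Cluster 7 held 2144 and 2456 nuclei of the 2 libraries labelled 5-month and 3 nuclei of each labelled 22-month, and clusters 20, 21, 22 and 24 held nearly all of the latter. Fkbp5 stood at 124 and 136 CPM in cluster 7 and at 7.15 to 19.9 CPM in each library labelled 22-month within each of the other 4 clusters, so no cluster of that group came near cluster 7. Markers of somatotropes other than growth hormone summed to 37.6, 50.3, 37.3 and 38.1 CPM in lactotrope-like nuclei. That set included Neurod4, which over all libraries stood at 27.7 CPM in lactotrope-like and 26.4 CPM in somatotrope-like nuclei. The sum is therefore not a measure of somatotrope RNA alone. Ghrhr stood at 4.51, 5.23, 4.23 and 2.39 CPM in lactotrope-like nuclei and Pappa2, another somatotrope marker, at 3.69, 4.11, 4.18 and 3.35 CPM. The 5 melanotrope markers other than Pomc, none at 0 in any library, summed to 74.1, 108, 37.2 and 26.8 CPM, lower in both libraries labelled 22-month. Growth hormone RNA, abundant enough to appear in all classes, stood there at 40556, 26052, 18019 and 9216 CPM, lower in both libraries labelled 22-month. These values were 18.1%, 16.1%, 11.9% and 8.88% of its somatotrope-like level. The 5 pituicyte markers summed to 7.11, 15.9, 135 and 260 CPM, with Rax, Nkx2-1 and Lhx2 at 0 in some library. The part of growth hormone RNA and of the melanotrope and pituicyte markers in the result was not tested.

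**Figure D3:**
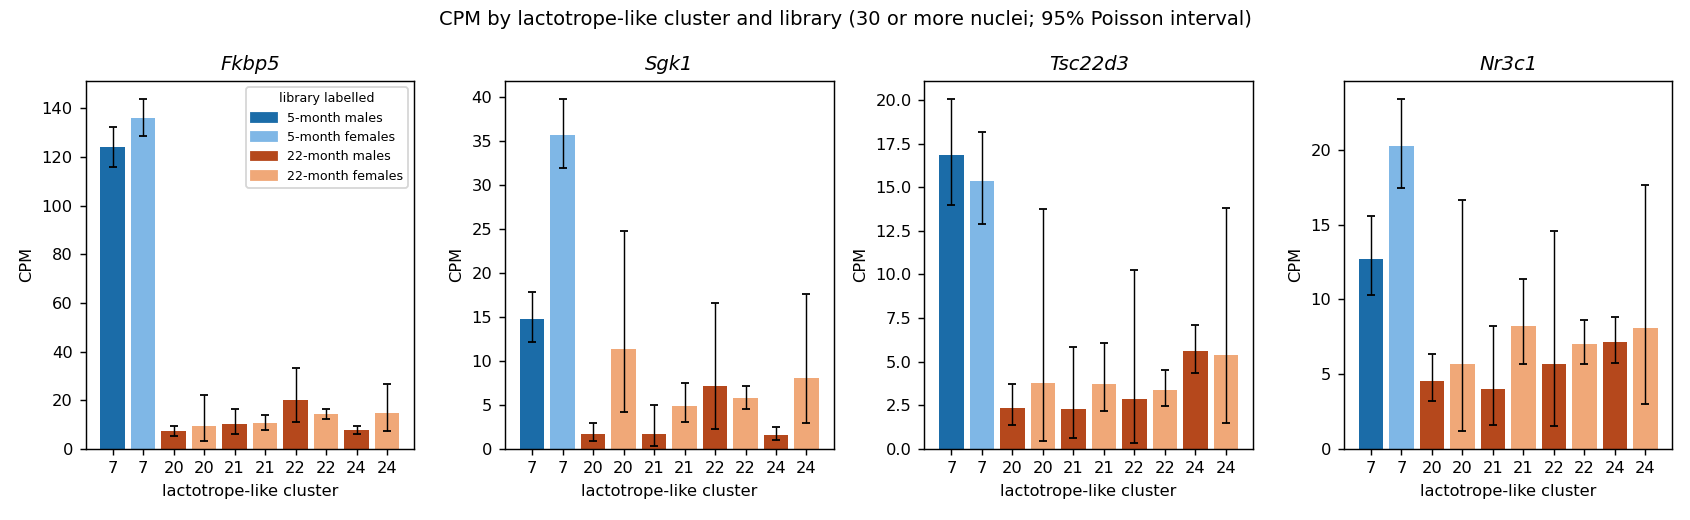
CPM of Fkbp5, Sgk1, Tsc22d3 and Nr3c1 in each lactotrope-like cluster, split by library and shown where at least 30 nuclei of the library lay in the cluster; bars start at 0 and error bars are 95% Poisson intervals. Fkbp5 stands at 124 and 136 CPM in cluster 7 and at no more than 19.9 CPM in clusters 20, 21, 22 and 24.

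Fkbp5 overlaps 2 short annotated genes, each with its own counts in these data. The sources do not state strand, so how reads were assigned between these genes and Fkbp5 is not known. Gm49838, inside Fkbp5 on the same strand, had 2 to 4 UMIs per library in lactotrope-like nuclei. Gm22146, on the opposite strand from 28446500 to 28456457, had 94, 122, 15 and 26 UMIs, with the same order of libraries as Fkbp5.

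Sgk1 in lactotrope-like nuclei stood at 14.8 and 35.7 CPM (108 and 321 UMIs) in the libraries labelled 5-month and at 1.82 and 5.85 CPM (41 and 110 UMIs) in those labelled 22-month. The groups did not overlap, though the libraries labelled females were above those labelled males within each age. Its log2 fold was -2.59 ± 0.22 (SE, edgeR adjusted p = 0.000324). Sgk1 lost its call when the pool of 5-month males (-3.03, adjusted p = 0.0623), of 5-month females (-1.73, 0.222) or of 22-month males (-1.92, 0.0506) was dropped, and passed without that of 22-month females (-3.60, 0.0192). On all 4 libraries without labelled sex as a term it did not pass either (-2.55, adjusted p = 0.0516). At a Leiden resolution of 2 the fold was -1.65 (adjusted p = 0.0201).

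Tsc22d3 in lactotrope-like nuclei stood at 16.8 and 15.3 CPM (123 and 138 UMIs) against 4.14 and 3.56 CPM (93 and 67 UMIs). The libraries labelled males and females of one labelled age differed little, and the labelled ages were apart. The log2 fold of Tsc22d3 was -1.87 ± 0.23 (SE, edgeR adjusted p = 0.0018), and it passed with each library left out, at adjusted p of 0.00765 to 0.0485. Tsc22d3 is X-linked, and the libraries with the lower level were those with Xist.

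Nr3c1 in lactotrope-like nuclei stood at 12.7 and 20.2 CPM (93 and 182 UMIs) against 5.96 and 7.45 CPM (134 and 140 UMIs). As a percent of the somatotrope-like level, given above, it was below growth hormone RNA in every library. Growth hormone RNA was also lower in both libraries labelled 22-month, and the part of RNA from somatotropes in the Nr3c1 result was not tested. The log2 fold of Nr3c1 was -1.08 ± 0.22 (SE, edgeR adjusted p = 0.0127). It did not pass with any library left out (-1.39 to -0.70): the adjusted p was 0.0614 without 5-month males, 0.266 without 5-month females, 0.12 without 22-month males and 0.0992 without 22-month females. On all 4 libraries without labelled sex as a term its adjusted p was 0.0606, and DESeq2 gave Nr3c1 an adjusted p of 0.0562. Nr3c2 in the same nuclei stood at 197, 310, 178 and 230 CPM, with overlapping groups and a log2 fold of -0.10 ± 0.13 (SE, edgeR adjusted p = 0.619). The edgeR folds rest on TMM totals, which raised the 22-month over 5-month ratios of lactotrope-like nuclei by a log2 of 0.199 in labelled males and 0.184 in labelled females against plain CPM. The Nr3c2 ratio went with this from 0.903 to 1.04 in males and from 0.742 to 0.843 in females, while the 4 passing genes stayed below 1 in both. Hsd11b1 stood at 2.05, 1.11, 2.67 and 1.12 CPM, with a log2 fold of 0.41 ± 0.45 (SE, adjusted p = 0.55).

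**Figure D4:**
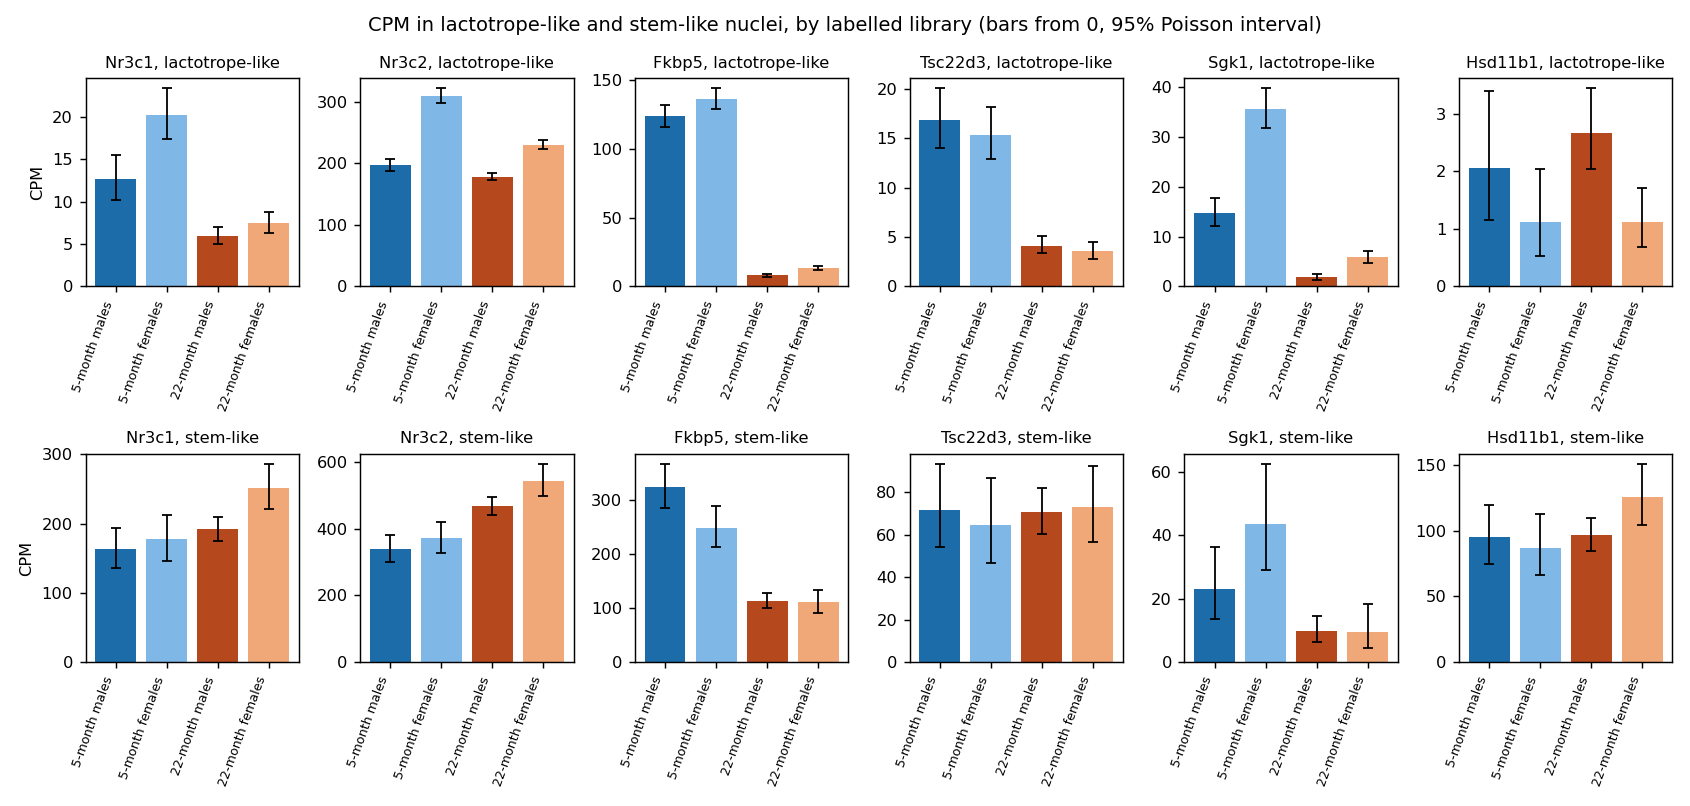
CPM of the 6 genes in lactotrope-like nuclei (upper row) and stem-like nuclei (lower row) of the 4 libraries; bars start at 0, each panel has its own axis, and error bars are 95% Poisson intervals for counting error. Fkbp5 and Sgk1 are lower in both libraries labelled 22-month in both classes, and Nr3c1 and Tsc22d3 are so in lactotrope-like nuclei but not in stem-like nuclei.

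Stem-like nuclei carry markers of the pituitary's stem and progenitor cells, among them Sox2. Fkbp5 stood there at 325 and 249 CPM (253 and 166 UMIs) in the libraries labelled 5-month and at 113 and 111 CPM (279 and 103 UMIs) in those labelled 22-month. The groups did not overlap. The log2 fold of Fkbp5 was -1.41 ± 0.20 (SE, edgeR adjusted p = 5.66e-10), or 2.86-fold lower in labelled males (exact binomial interval 2.41 to 3.41) and 2.25-fold lower in labelled females (1.75 to 2.91). It did not pass in the fit without the pool of 5-month males (log2 fold -1.17, adjusted p = 0.099), and passed on all 4 libraries without labelled sex as a term (adjusted p = 0.00389). All stem-like nuclei of the 4 libraries lay in a single cluster. In these nuclei the summed somatotrope markers other than growth hormone stood at 12.8, 7.51, 21.5 and 22.6 CPM and the stromal markers at 69.3, 122, 90.6 and 89.2 CPM, so neither set was lower in both libraries labelled 22-month. The 4 lactotrope markers other than prolactin summed to 250.3, 414, 434 and 491 CPM, and with prolactin to 10928, 5468, 70826 and 25319 CPM, higher in both libraries labelled 22-month, and their part in the stem-like Fkbp5 and Sgk1 results was not tested.

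Sgk1 in stem-like nuclei rested on 18, 29, 24 and 9 UMIs, or 23.1, 43.5, 9.75 and 9.67 CPM. Both libraries labelled 22-month were below both labelled 5-month. The log2 fold was -1.69 ± 0.39 (SE, edgeR adjusted p = 0.000611). DESeq2 gave Sgk1 an adjusted p of 0.764, and the call was lost when the pool of 5-month males (-2.17, adjusted p = 0.0637) or of 5-month females (-1.30, 0.394) was dropped. The remaining genes did not pass in stem-like nuclei. Nr3c2 stood at 339, 371, 467 and 544 CPM (0.46 ± 0.19 SE, edgeR adjusted p = 0.154) and Nr3c1 at 163, 177, 192 and 251 CPM (0.32 ± 0.20 SE, adjusted p = 0.486). Both were higher in the libraries labelled 22-month without overlap, by less than the test required. Tsc22d3 had a log2 fold of 0.02 ± 0.24 (SE, adjusted p = 0.981) and Hsd11b1 of 0.21 ± 0.22 (SE, adjusted p = 0.731).

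In the other endocrine classes Fkbp5 came nearest to the threshold. Somatotrope-like nuclei held 282, 334, 202 and 249 CPM (-0.42 ± 0.12 SE, edgeR adjusted p = 0.0766). This class also separated by labelled age: cluster 0 held 1212 and 875 nuclei of the libraries labelled 5-month against 90 and 37, and cluster 2 held 46 and 43 against 1429 and 991. Gonadotrope-like nuclei held 229, 364, 137 and 238 CPM (-0.55 ± 0.18 SE, adjusted p = 0.0531), with overlapping groups. Thyrotrope-like nuclei held 144, 128, 89.5 and 79.5 CPM without overlap (-0.71 ± 0.18 SE, adjusted p = 0.113). Corticotrope-like nuclei, where the receptor gene itself was highest, had a log2 fold of 0.33 ± 0.20 (SE, adjusted p = 0.513), and melanotrope-like nuclei one of -0.10 ± 0.19 (SE, adjusted p = 0.862). The size of the Fkbp5 effect thus ran from -3.46 to 0.33 across classes.

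Whether the labelled-age effect differed between classes was tested directly, in a model of both classes with libraries as a block, chosen after seeing the data. Lactotrope-like nuclei were set against 6 other classes, and since those comparisons share the lactotrope-like sums they are not independent of one another. For Fkbp5 the effect was lower in lactotrope-like nuclei in 6 of 6 comparisons, by a log2 difference of -3.80 ± 0.28 (SE) against corticotrope-like nuclei (edgeR adjusted p = 6.66e-06), -3.39 ± 0.22 against melanotrope-like (8.61e-05), -3.07 ± 0.17 against somatotrope-like (0.000316), -2.91 ± 0.24 against gonadotrope-like (0.00175), -2.80 ± 0.30 against thyrotrope-like (0.000144) and -2.11 ± 0.27 against stem-like nuclei (0.000124). Nr3c1 passed in 5 of these comparisons, all but gonadotrope-like, with differences from -1.95 to -1.25. Tsc22d3 passed against somatotrope-like, melanotrope-like, thyrotrope-like and stem-like nuclei (-2.62 to -1.71), and Sgk1 against somatotrope-like, corticotrope-like and gonadotrope-like nuclei (-3.90 to -3.32). Of all genes tested, 7.36%, 3.00%, 4.33%, 2.76%, 2.55% and 4.46% passed against somatotrope-like, corticotrope-like, melanotrope-like, gonadotrope-like, thyrotrope-like and stem-like nuclei. The stem-like effect was set against stromal-like and pituicyte-like nuclei in the same way, and 0 of 6 genes passed in either comparison (edgeR's quasi-likelihood test; at an unadjusted p under 0.05, Fkbp5 alone in each; DESeq2 was not run for these). The Fkbp5 differences were -1.12 ± 0.28 (SE, edgeR adjusted p = 0.0887) and -1.41 ± 0.40 (adjusted p = 0.483), with 0.311% and 0.0595% of all genes passing.

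The pair of libraries whose labels matched their sex-chromosome transcripts, 22-month females and 5-month males, was compared alone as an addition after seeing the data. The pair differs in age and in sex at once, so age and sex cannot be told apart in it. The ratio of these 2 libraries in lactotrope-like nuclei was 0.107 for Fkbp5 (exact binomial interval 0.0925 to 0.123), 0.212 for Tsc22d3 (0.155 to 0.288), 0.396 for Sgk1 (0.301 to 0.522) and 0.586 for Nr3c1 (0.447 to 0.77). In stem-like nuclei it was 0.341 for Fkbp5 (0.268 to 0.43) and 0.419 for Sgk1 (0.166 to 0.981). These intervals cover counting error only, and a pair of libraries gives no replicate check.

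The comparison of labelled sexes gave 4 calls among the same 53 tests. The background was 0.432% of genes in lactotrope-like nuclei, 2.59% in gonadotrope-like and 2.30% in pituicyte-like nuclei. Pituicyte-like nuclei, 45 to 102 per library, held 2 of the calls. Fkbp5 stood there at 237, 116, 252 and 103 CPM (49, 26, 127 and 28 UMIs), lower in both libraries labelled females, with a log2 fold of females over males of -1.19 ± 0.28 (SE, edgeR adjusted p = 0.00241). Nr3c1 ran the other way, at 111, 223, 107 and 225 CPM (23, 50, 54 and 61 UMIs), with a log2 fold of 1.02 ± 0.28 (SE, adjusted p = 0.0178). For both genes the groups were apart and libraries of the same labelled sex were close. The 5 somatotrope markers summed in these nuclei to 30013, 17894, 20001 and 6888 CPM. The 5 melanotrope markers other than Pomc, each at 0 in some library, summed to 29.1, 26.8, 43.7 and 3.69 CPM. Both sums were lower in both libraries labelled females. Stem markers (271, 259, 225 and 273 CPM) and stromal markers (9.68, 26.8, 35.8 and 22.1 CPM) were not. The part of such RNA in these results was not tested. Without 1 library the adjusted p ran from 0.175 to 0.737 for Fkbp5 and from 0.374 to 0.708 for Nr3c1, so neither passed with any library left out. On all 4 libraries without labelled age as a term, 0 of the 4 calls for labelled sex passed (edgeR; adjusted p of 0.447 for Fkbp5 and 0.63 for Nr3c1 here).

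Gonadotrope-like nuclei, the cells of luteinizing and follicle-stimulating hormone, held Fkbp5 at 229, 364, 137 and 238 CPM. Both libraries labelled females were above both labelled males, by a narrow margin between 238 and 229 CPM. The log2 fold was 0.78 ± 0.18 (SE, edgeR adjusted p = 0.0248), and it did not pass with DESeq2 (adjusted p = 0.718) or with any library left out (adjusted p of 0.928 or more). The 5 melanotrope markers other than Pomc summed in these nuclei to 376, 204, 417 and 208 CPM, lower in both libraries labelled females, and their part in the result was not tested. Most of these nuclei lay in cluster 11 for the libraries labelled 5-month and in cluster 23 for those labelled 22-month. Sgk1 in lactotrope-like nuclei was higher in labelled females (14.8 and 1.82 CPM in males, 35.7 and 5.85 CPM in females; log2 fold 1.46 ± 0.22 SE, adjusted p = 0.0486), with overlapping ranges. Without the library labelled 5-month females the Sgk1 fold turned to -0.28 (adjusted p = 0.974), and it did not pass without any other single library (0.53 to 3.31).

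The wider pathway was read from 6 lists of genes. Of 24 genes known to respond to glucocorticoids, the list without the 6 followed here, 22 were tested in lactotrope-like nuclei: 7 fell and 1 rose with labelled age. Of all genes there, 10.7% fell and 11.6% rose, and the median log2 fold was -0.67 for the list against -0.02 over all genes. Lcn2, Hif3a and Cebpb had the largest folds, at -2.40 ± 0.47, -1.96 ± 0.35 and -1.28 ± 0.24 (SE, edgeR adjusted p of 0.0108, 0.00779 and 0.00894). In stem-like nuclei 6 of 16 fell and 0 rose (median -0.45 against -0.01), where 2.79% of all genes fell and 2.87% rose. The largest fold was that of Lcn2, an iron-binding acute-phase protein gene, at 91.1 and 96.1 CPM against 13.01 and 10.7 CPM (log2 fold -2.97 ± 0.29 SE, edgeR adjusted p = 9.92e-22). Corticotrope-like nuclei, in which none of the 4 tested members passed and 2.76% of genes did, had 6 of 15 listed genes fall and 1 rise (median -0.66 against 0.00). Their metallothionein gene Mt1 stood at 570, 192, 50.2 and 70.7 CPM (-2.63 ± 0.25 SE, adjusted p = 2.38e-23).

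In melanotrope-like nuclei 5 of 17 fell, where 1.43% of all genes fell. In gonadotrope-like nuclei 5 of 15 fell and 1 rose, where 4.90% of all genes fell and 7.24% rose. In both classes, however, the library labelled 5-month males stood apart. Of its 369 melanotrope-like nuclei, 280 lay in cluster 6, which held 0 and 1 nuclei of the libraries labelled 22-month. Dusp1, an immediate-early phosphatase gene, was at 182, 16.4, 12.96 and 24.5 CPM in melanotrope-like and at 75.9, 8.70, 4.41 and 4.61 CPM in gonadotrope-like nuclei. Thyrotrope-like nuclei had 0 of 16 pass, where 1.58% of all genes passed. Somatotrope-like nuclei had 3 fall and 2 rise of 22, where 2.15% of all genes fell and 4.19% rose. Among these was Pdk4, a kinase gene of fasting metabolism, which rose by a log2 fold of 1.40 ± 0.17 (SE, edgeR adjusted p = 0.003). Genes of this list also answer to other signals, and the part of those signals was not tested.

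Of the receptor chaperones, 4 of 11 rose in lactotrope-like nuclei, where 11.6% of all genes rose (median log2 fold 0.34 against -0.02). Among them were Stip1, which links the heat-shock proteins Hsp70 and Hsp90 (0.90 ± 0.13 SE, edgeR adjusted p = 0.00371), Hspa8 (0.85 ± 0.12 SE, adjusted p = 0.00321) and Hsp90aa1 (0.69 ± 0.18 SE, adjusted p = 0.0303). In somatotrope-like nuclei 1 of 11 rose, where 4.19% of all genes rose. Among 12 receptor coregulators, 3 of 11 tested rose in gonadotrope-like nuclei, where 7.24% of all genes rose, 3 of 12 in somatotrope-like (4.19%), 2 of 12 in melanotrope-like (1.92%) and 2 of 11 in lactotrope-like nuclei, near the 11.6% of all genes, and 0 fell in any of these classes. The corepressor gene Nrip1 rose in all 4, from 74.8 and 87.3 to 159 and 233 CPM in lactotrope-like nuclei (log2 fold 1.45 ± 0.13 SE, adjusted p = 0.000382). Ppargc1a, a coactivator gene of mitochondrial metabolism, rose in stem-like nuclei (1.32 ± 0.26 SE, adjusted p = 1.96e-05).

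Steroid metabolism and transport had 3 of 6 tested genes rise in lactotrope-like nuclei, against 11.6% of all genes (median log2 fold 0.61 against -0.02). Akr1c14, a hydroxysteroid dehydrogenase gene, stood at 2.60, 14.8, 73.2 and 71.3 CPM (3.36 ± 0.45 SE, edgeR adjusted p = 0.0025). It also rose in somatotrope-like nuclei (0.232, 0.830, 19.4 and 18.3 CPM, adjusted p = 0.000254) and thyrotrope-like nuclei (0, 0, 18.1 and 29.7 CPM, adjusted p = 0.0217). In lactotrope-like nuclei the steroid-exporting transporter genes Abcb1a and Abcb1b had log2 folds of 1.66 ± 0.31 and 1.10 ± 0.12 (SE, adjusted p of 0.00955 and 0.00105). Mineralocorticoid-responsive genes had 2 of 7 rise in lactotrope-like nuclei (11.6% of all genes, median log2 fold -0.09) and 2 of 5 in gonadotrope-like nuclei (7.24% of all genes, median 0.51), where the sodium-channel subunit gene Scnn1b went from 6.38 and 4.35 to 20.1 and 27.0 CPM (2.22 ± 0.43 SE, adjusted p = 0.00155). Of the genes that drive or read out corticotropes, Pomc fell in corticotrope-like nuclei from 29398 and 41152 to 14040 and 13391 CPM (-1.31 ± 0.18 SE, edgeR adjusted p = 8.23e-11). Nr4a2 stood there at 171, 61.3, 26.8 and 36.4 CPM (-1.95 ± 0.30 SE, adjusted p = 2.58e-08), with the library labelled 5-month males far above the rest. Avpr1b, the vasopressin receptor gene, rose by 1.06 ± 0.31 (SE, adjusted p = 0.0246) on the log2 scale. Crhbp, which binds corticotropin-releasing hormone, stood in lactotrope-like nuclei at 0 and 0.111 CPM under the 5-month label and at 118 and 136 CPM under the 22-month label. It also rose in somatotrope-like nuclei (0, 0, 17.7 and 11.8 CPM) and melanotrope-like nuclei (0, 0.513, 18.0 and 7.15 CPM). The part of RNA from other nuclei in these lower levels was not tested.

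Genes whose level followed a member most closely were read from Pearson's r of log2(CPM + 1) over 44 sums of class and library, as a description, since sums of one library share depth and sums of one class share cells. Hsd11b1 was nearest to Gxylt2 (0.90), Bnc2 (0.88) and Scara5 (0.87), and Tsc22d3 to Spats2l (0.83) and Pxdc1 (0.81). Fkbp5 was nearest to Gm22146 (0.90), the overlapping gene on its other strand, then to Nr3c1 (0.74). Nr3c1 was nearest to Tcf7l2 (0.75), Nr3c2 to Psd3 (0.71), and Sgk1 to St3gal1 (0.74). Among the members themselves, Nr3c1 and Nr3c2 had an r of 0.54 and Nr3c2 and Fkbp5 one of 0.39.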

How the data were processed

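Single-nucleus RNA was counted in 4 pituitary libraries, 1 per labelled group, each a pool of 3 glands made with the 10x Genomics 3' platform for a target of 10000 nuclei. The deposited matrices held raw UMI counts per gene and barcode from Cell Ranger 7.0.1, per the file headers, against mm10, per the submitters' processing notes; the sources used here do not give whether intronic reads or strand were used. Barcodes with at least 500 genes and at most 5% mitochondrial UMIs were kept, and Scrublet scores above 0.132, the median of the libraries' automatic thresholds, were called doublets and removed (11.5% to 14.0% per library). This left 7081, 6536, 10374 and 7181 nuclei, for males and females of the 5-month label and then of the 22-month label. Total UMIs are given in the report, and Poisson and binomial intervals (95%) cover counting error only.

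Nuclei were clustered with scanpy 1.11.5 (3000 variable genes without the 6 members, 30 components, 15 neighbours, Leiden resolution 1) into 25 clusters, named from marker lists into 11 classes, each kept where every library gave 30 or more nuclei. The doublet threshold and the naming settings (score of at least 0.9, lead of at least 0.5) were set after seeing the data. Counts were summed per class and library and tested with edgeR 4.0.16 (TMM, filterByExpr, glmQLFit, glmQLFTest) on labelled age and labelled sex, with Benjamini-Hochberg adjustment over all genes and a threshold of 0.05. With 1 library per group, no pool was repeated. The residual spread behind the p-values is thus the departure of 4 pools from additive labelled age and labelled sex, not spread between mice. In corticotrope-like, stem-like, stromal-like and pituicyte-like sums this spread was taken wholly from all genes together, so their very small p-values are not replicated evidence. On simulated data with known changes in lactotrope-like sums (16441 genes), the labelled-age test recovered 97 of 100 genes changed 4-fold and 64 of 100 changed 2-fold, and in stem-like sums (10080 genes) 98 and 50. Recovery was lowest in stromal-like sums (7024 genes, 55 and 1) and endothelial-like sums (4875 genes, 55 and 4), followed by macrophage-like sums (5785 genes, 83 and 21). The simulation gave all genes of a class the same dispersion, no labelled-sex effect and no changed genes beyond these. In the data 22.2% of genes passed in lactotrope-like nuclei, so recovery there can differ from these figures. Alternatives were DESeq2 1.42.0, no filter, 1 factor alone, each library left out (fitted on 1 factor alone), doublets kept, at least 1000 genes per nucleus and Leiden resolution 2.

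The text names the 6 members, at most 3 passing genes per list and class, and the genes nearest to each member among 11192 with a mean of at least 10 CPM. One of these nearest genes is not reported here. The members and lists were chosen with earlier results of these data known. Promoter windows were taken from RefSeq by symbol and gene positions from GENCODE M21; 5 of the 6 members had a window.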

Additional observations from a re-analysis of the deposited data

Results flagged for a closer look

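The effect of labelled age (22-month over 5-month, log2) differed between classes in 18 tests of the difference itself, all with lactotrope-like nuclei as the first class and lower. The pairs were chosen after seeing the data. They set lactotrope-like nuclei against the other endocrine and stem-like nuclei, and stem-like against stromal-like and pituicyte-like nuclei, so the first class was largely fixed by that choice. Tests with lactotrope-like nuclei share their sums. Each pair had 5 or 6 members tested, and 2.55% to 7.36% of all genes passed in the lactotrope-like pairs. For Fkbp5 the difference was -3.07 against somatotrope-like, -3.80 against corticotrope-like, -3.39 against melanotrope-like, -2.91 against gonadotrope-like, -2.80 against thyrotrope-like and -2.11 against stem-like nuclei. Nr3c1 differed by -1.25 against somatotrope-like, -1.38 against corticotrope-like, -1.95 against melanotrope-like, -1.56 against thyrotrope-like and -1.44 against stem-like nuclei. Tsc22d3 differed by -1.71, -2.62, -2.20 and -1.91 against somatotrope-like, melanotrope-like, thyrotrope-like and stem-like nuclei, and Sgk1 by -3.32, -3.90 and -3.45 against somatotrope-like, corticotrope-like and gonadotrope-like nuclei.

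In 2 classes a gene moved in opposite directions within the labelled sexes on plain CPM, with counting intervals on either side of 1, and this difference was not tested. Nr3c1 in somatotrope-like nuclei had a 22-month over 5-month ratio of 0.94 in labelled males and 1.19 in labelled females. TMM totals raised the ratios of this class by a log2 of 0.042 in labelled males and 0.026 in labelled females. This brings the ratio of labelled males nearer to 1. Somatotrope-like nuclei of the labelled ages lay mostly in different clusters; within cluster 0 Nr3c1 stood at 229, 262, 206 and 274 CPM, and within cluster 2 at 361, 229.7, 213 and 307 CPM. Fkbp5 in macrophage-like nuclei had a ratio of 1.71 in labelled males and 0.664 in labelled females.

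The 1042 unnamed nuclei, which entered no comparison, held all 6 genes above the 0.486 CPM that a count of 0 allows over their 6166648 UMIs. Over the 4 libraries together Nr3c2 stood there at 283 CPM, Nr3c1 at 63.6 CPM, Fkbp5 at 60.2 CPM, Tsc22d3 at 14.3 CPM, Sgk1 at 10.9 CPM and Hsd11b1 at 3.89 CPM.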

How the results depend on the processing

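Fkbp5 and Tsc22d3 in lactotrope-like nuclei passed for labelled age under all 10 alternatives (log2 -3.83 to -3.10 and -1.97 to -1.76), and Fkbp5 in stem-like nuclei under 9 of 10. Fits without a library also lacked the other factor, which by itself left 0 calls for labelled sex. In them Sgk1 in lactotrope-like nuclei ran from -0.28, without the library labelled 5-month females, to 3.31, against 1.46 in full. The number of calls among the members was 6 for labelled age and 2 to 5 with 1 library left out. For labelled sex it was 4, and 1 with DESeq2, 0 without the other factor, 0 with doublets kept, 2 with at least 1000 genes per nucleus and 0 to 0 with 1 library left out.

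Counts of all genes passed for labelled age were 3655 in lactotrope-like nuclei, 1900 with DESeq2, 1856 without the other factor and 399 to 2102 with 1 library left out; in stem-like nuclei they were 570, 71, 188 and 47 to 479. For labelled sex the count in lactotrope-like nuclei was 71, 125 with DESeq2, 708 with no filter, 0 without the other factor, 30 with doublets kept, 45 with at least 1000 genes and 0 to 0 with 1 library left out. In gonadotrope-like nuclei it was 311, 50 with DESeq2, 546 with no filter, 0 without the other factor, 86 with doublets kept and 0 to 11 with 1 library left out. In pituicyte-like nuclei it was 115, 19 with DESeq2, 0 without the other factor, 62 with doublets kept, 42 with at least 1000 genes and 29 to 68 with 1 library left out. The cause of these shifts was not tested.

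Each gene kept its highest class in all 3 alternatives of nuclei or clustering except Sgk1, which led in somatotrope-like nuclei with doublets kept and with at least 1000 genes per nucleus (endothelial-like nuclei were too few in the latter). Levels left their counting interval in 64 of 240 values with doublets kept, 6 of 216 with at least 1000 genes and 19 of 264 at Leiden resolution 2. The median share of nuclei with a UMI was 18.5% and, thinned to 1500 UMIs, 10.1%. TMM totals left 54 of 129 ratios with an interval apart from 1, against 56. With doublets kept and with at least 1000 genes, no cluster met the naming settings for macrophage-like nuclei, since the lymphocyte markers scored too near. DESeq2 gave no adjusted p for either gene called in pituicyte-like nuclei. No paired analysis was possible because the labels give no replicate numbers and each group is 1 library. Depth limited Sgk1, with 9 to 29 UMIs per library in stem-like nuclei.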

Other observations

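Nr3c2 passed the labelled-age test in no class, but its ratio of 22-month over 5-month CPM had a counting interval above 1 in both labelled sexes in 4 classes. In corticotrope-like nuclei the ratio was 1.38 in labelled males (exact binomial interval 1.21 to 1.58) and 1.30 in labelled females (1.09 to 1.54), in stem-like nuclei 1.38 (1.20 to 1.58) and 1.47 (1.26 to 1.71), in thyrotrope-like nuclei 1.15 and 1.24, and in somatotrope-like nuclei 1.14 and 1.16. The edgeR log2 folds of these classes were 0.46 ± 0.20, 0.46 ± 0.19, 0.23 ± 0.15 and 0.23 ± 0.13 (SE, adjusted p of 0.241, 0.154, 0.538 and 0.288), so the ratios exceeded counting error without passing the test over libraries. Nr3c1 in melanotrope-like nuclei, from 16, 25, 88 and 43 UMIs, had ratios of 1.80 (1.05 to 3.29) and 1.71 (1.02 to 2.93), with a log2 fold of 0.84 ± 0.32 (SE, edgeR adjusted p = 0.159). Within melanotrope-like cluster 18, which held 89 nuclei of the 5-month males, Nr3c1 stood at 17.1 CPM (6 UMIs), 13.1, 18.4 and 22.0 CPM, and the other 280 nuclei of that library, in cluster 6, stood at 8.22 CPM.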
